A study of Mus musculus with 68 samples.

Results

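The 10 genes described here make or supply the sugar chains of glycoproteins, glycolipids and proteoglycans, or, for Ogt, attach single sugars to proteins. They are B4galt1, B4galt5, B3gnt9, Gcnt2, Extl2, Slc35c1, St3gal5, Gfpt1, Gfpt2 and Ogt, and they were followed in the heart, lung, kidney and liver of mice given epidermal growth factor (Egf). They were taken by symbol from the 56748 genes of the deposited count table, of which 34384 had at least 1 read, and each symbol had 1 entry. The list was chosen on changes measured in these same libraries. Differences between Egf and vehicle, between times and between vehicle and untreated are therefore given below as a description, without p-values for the 10 genes, and nothing is supported with them.

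The mice were wild-type C57BL/6J females aged 10 weeks. They received Egf at 1 mg/kg in phosphate-buffered saline, or the saline vehicle alone, by retro-orbital injection while under isoflurane, and organs were taken 2 h or 6 h later. Untreated mice were a further control, so vehicle differed from untreated by injection, anaesthesia and time together. Each organ had 4 libraries for each Egf group and 3 for each vehicle and untreated group, 17 libraries an organ and 68 in all. RNA came from pulverised whole organ, so fewer cells of a type and less RNA per cell cannot be told apart. The series text counts 3 untreated mice for 12 untreated libraries, so some untreated libraries of different organs come from the same animal.

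Complex sugar chains are built in the Golgi apparatus by glycosyltransferases, which move sugars from nucleotide donors onto a growing chain. The donor UDP-N-acetylglucosamine (UDP-GlcNAc) is the end product of the hexosamine pathway, whose first and rate-limiting step is the glutamine:fructose-6-phosphate amidotransferase reaction carried out by Gfpt1 and Gfpt2. Ogt uses the same donor to attach single GlcNAc residues to nuclear and cytoplasmic proteins. The Egf receptor itself is a heavily N-glycosylated membrane protein, and the ganglioside GM3, made by St3gal5, is known to lower its signalling in cultured cells.

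Promoters of some of these genes are shown because several of the 10 genes changed 2 h after Egf, in both directions. AP-1, Egr, Ets family and serum response factors are the textbook transcription factors downstream of the Egf receptor. RefSeq windows of 250 bases upstream of an annotated start (GRCm38.p6, a different build from the mm39 of the count table) were found for 9 of the 10 genes, 14 windows in all. B3gnt9 had no entry. Each sequence below runs 5′ to 3′ on the strand of its gene, with motif matches in capitals.
B4galt1 promoter, chr4:40853985-40854234, minus strand: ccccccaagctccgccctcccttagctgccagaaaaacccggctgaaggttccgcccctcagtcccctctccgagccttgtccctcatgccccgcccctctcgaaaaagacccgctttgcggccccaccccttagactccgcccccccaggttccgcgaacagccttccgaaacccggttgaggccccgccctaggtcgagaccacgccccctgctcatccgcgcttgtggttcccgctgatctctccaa
B4galt5 promoter, chr2:167349179-167349428, minus strand: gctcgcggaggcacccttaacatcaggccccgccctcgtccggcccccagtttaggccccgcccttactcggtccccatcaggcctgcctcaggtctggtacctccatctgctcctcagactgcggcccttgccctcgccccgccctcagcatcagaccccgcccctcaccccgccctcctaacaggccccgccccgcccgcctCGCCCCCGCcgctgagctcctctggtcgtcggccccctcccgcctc
Gfpt2 promoter, chr11:49793905-49794154, plus strand: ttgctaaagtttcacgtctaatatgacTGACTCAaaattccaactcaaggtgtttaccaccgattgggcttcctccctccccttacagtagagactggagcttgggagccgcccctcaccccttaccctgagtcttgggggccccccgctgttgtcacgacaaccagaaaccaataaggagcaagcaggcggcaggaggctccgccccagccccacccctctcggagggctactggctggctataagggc
Extl2 promoter (window 1 of 2), chr3:116007199-116007448, plus strand: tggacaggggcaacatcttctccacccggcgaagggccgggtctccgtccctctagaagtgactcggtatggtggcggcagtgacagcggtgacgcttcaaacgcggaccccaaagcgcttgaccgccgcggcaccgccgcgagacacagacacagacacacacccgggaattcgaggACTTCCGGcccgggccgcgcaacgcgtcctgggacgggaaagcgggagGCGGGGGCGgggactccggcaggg

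Capitals in the B4galt5 window mark an Egr match (GCGNGGGCG on either strand) that begins 46 bases before the start. In the Gfpt2 window they mark an AP-1 match (TGANTCA) that begins 223 bases before the start, and in the Extl2 window an Ets match (CCGGAAGT, here on the other strand) at 72 bases and an Egr match at 24 bases. The B4galt1 window, 66.4% G and C, held none of the motifs searched. The windows of Slc35c1 (2), Gcnt2 (3) and Ogt (2), which are not printed, held none either. Egr matches were found in 4 of the 14 windows (1 each of B4galt5, Extl2, St3gal5 and Gfpt1), against 4.7% of all 32851 windows of the same length. St3gal5 and Gfpt1 were called in no organ after Egf by edgeR. The 4 Egr windows were 68.8% to 73.2% G and C, against a median of 52.4% over all windows, and the motif itself is rich in G and C. AP-1 was found in 1 of the 14 windows (6.75% of all windows), Ets in 1 (2.88%), the E-box CACGTG in 1, the other Extl2 window (6.02%), and neither the cyclic AMP response element TGACGTCA (1.55%) nor the serum response element (1.47%) in any. These are matches of letters on both strands, not measured binding, and the part of these factors in the changes was not tested.

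Libraries held 13271813 to 24972005 counted reads, and all 10 genes passed the filter on low counts in every organ. The lowest read count of a member in a library was 2 for B3gnt9 and 4 for Gfpt2, both in liver. The other 8 members had at least 48 reads in every library. Levels are counts relative to library size (CPM) scaled by trimmed mean of M values (TMM) within an organ, and a log2 change is followed by its standard error (SE). Levels per kb of gene length were instead scaled by TMM over all 68 libraries, so they cannot be set against the within-organ CPM. Marker sums are CPM without TMM scaling. A gene is called where its adjusted p was under 0.05 in edgeR's quasi-likelihood test, with Benjamini-Hochberg adjustment over all genes tested in that organ. The libraries of a group varied most in heart (biological coefficient of variation 0.389), then lung (0.283), liver (0.224) and kidney (0.192). Each organ's own cell markers dominated its libraries, but 7 heart libraries and 1 lung library carried clear RNA of another organ (at least 10 times the organ's median and 500 CPM of that marker list). The labels do not say which libraries share an animal, though the libraries carry the same running numbers in every organ. The spread is therefore that between these libraries. Tests between organs took all libraries as independent unless a block is named.

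In untreated mice the most abundant transcript per length was St3gal5 in liver, at 62.6 ± 4.12 CPM per kb (SD, n = 3), and the least was Gfpt2 in liver, at 0.0893 ± 0.0349. St3gal5 encodes GM3 synthase, which adds sialic acid to lactosylceramide. It ran in the order liver, heart, lung, kidney at 62.6, 33.2, 8.67 and 1.91 CPM per kb, and every neighbouring pair differed (adjusted p at most 1.87e-04, edgeR quasi-likelihood test). The untreated heart values of all 10 genes need a caution, since all 3 untreated heart libraries were among those carrying another organ. Hepatocyte markers summed to 19250 CPM in replicate 1 and 16080 in replicate 3, and proximal tubule markers to 1116 in replicate 2. B4galt5, a lactosylceramide synthase, was highest in kidney (28.8 ± 2.74), followed by liver (13.9), lung (7.90) and heart (5.85), and each neighbouring pair differed (highest adjusted p 0.0385, lung against heart). B4galt1, the main galactosyltransferase of N-glycans and a subunit of lactose synthase, had 27.1 in heart and 22.7 in lung, which did not differ beyond their spread (adjusted p = 0.0564), then 17 in liver and 10.4 in kidney.

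Gfpt1 fell into a pair of levels, 7.6 in lung and 7.52 in kidney against 2.68 in heart and 2.67 in liver, with no difference passing the test within either pair. Its paralogue Gfpt2 ran heart 2.09, lung 1.15, kidney 0.802 and liver 0.0893 CPM per kb, with every neighbouring pair different (highest adjusted p 0.0216, lung against kidney). Ogt was highest in kidney at 7.47, and its heart and lung levels (4.83 and 3.75) and its lung and liver levels (3.75 and 3.48) did not differ beyond their spread. Gcnt2, the branching enzyme that makes I antigen, was lowest in heart at 1.64 against 5.13 in liver, 6.42 in kidney and 8.73 in lung, with kidney and liver not separated. Slc35c1, the Golgi GDP-fucose transporter, was lowest in heart at 2.86, with 5.71 in lung, 5.93 in kidney and 7.29 in liver. For Slc35c1 neither lung and kidney nor kidney and liver were separated. Extl2, a transferase that can end heparan sulphate and chondroitin sulphate chains early, had 6.71 in kidney, 5.08 in heart, 4.03 in liver and 3.23 in lung, each neighbour different. B3gnt9, an N-acetylglucosaminyltransferase whose substrate is little known, ran lung 5.71, heart 3.1, kidney 1.09 and liver 0.677, with kidney and liver not separated. All 10 genes differed among the organs by the test with 3 degrees of freedom, where 90.5% of all genes tested did, so the count itself says little. The same 10 were called in a fit of the 12 untreated libraries with the replicate number as a block.

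**Figure D1:**
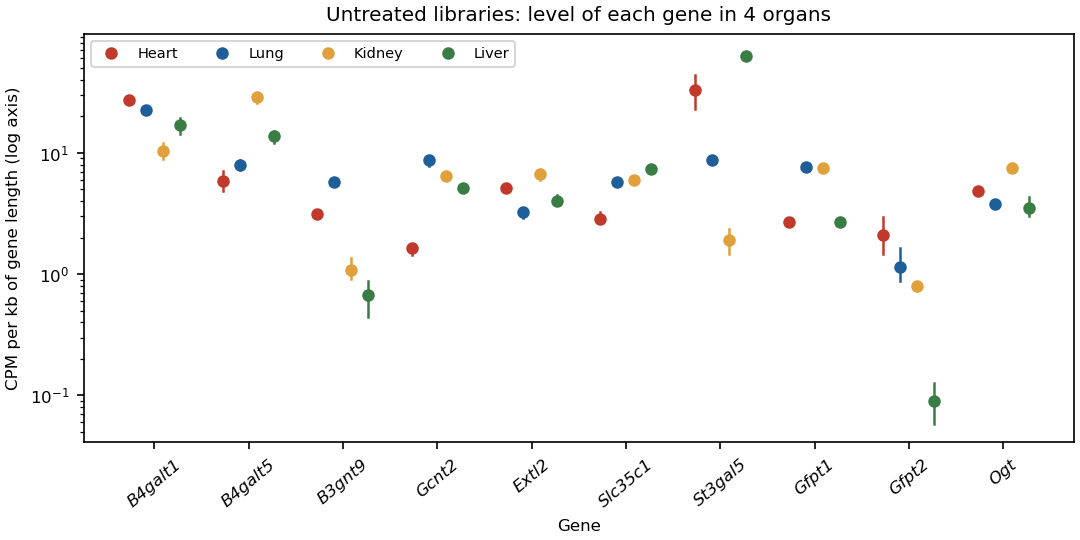
Level of each gene in untreated libraries, in CPM per kb of gene length on a log axis, with a point at the mean of 3 libraries and a line from the lowest to the highest library; colours are organs. St3gal5 spans from 1.91 in kidney to 62.6 in liver, and Gfpt2 reaches the lowest level, 0.0893 in liver. CPM here is TMM-scaled over all 68 libraries.

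At 2 h after Egf, 13 of the 40 gene and organ pairs were called, 9 higher and 4 lower than vehicle, and they involved 7 of the 10 genes. Liver had 4 higher and 1 lower (B4galt1, B4galt5, Gcnt2 and Slc35c1 up, Extl2 down), where 3.92% of all genes tested were called. Lung had 3 higher and 2 lower (B4galt1, B4galt5 and Gfpt2 up, B3gnt9 and Extl2 down), with 0.84% of all genes called. Heart had Gfpt2 higher and B3gnt9 lower, with 0.211% of all genes called, and kidney had Gcnt2 higher, with 0.256%. In heart, 18S ribosomal RNA took 1.01% to 1.66% of the reads of the Egf libraries and 0.537% to 0.803% of those of vehicle, without overlap, and its part in the heart calls was not tested. St3gal5, Gfpt1 and Ogt were called in no organ at 2 h by edgeR, while DESeq2 and limma voom with quality weights both called Ogt in lung. The choice of the list used these contrasts, so the shares are set beside the counts without a reading. The 10 genes had a median log2 change of 0.45 in liver, 0.12 in lung, 0.11 in heart and -0.16 in kidney, against -0.02, 0.00, -0.02 and -0.01 for all genes tested.

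**Figure D2:**
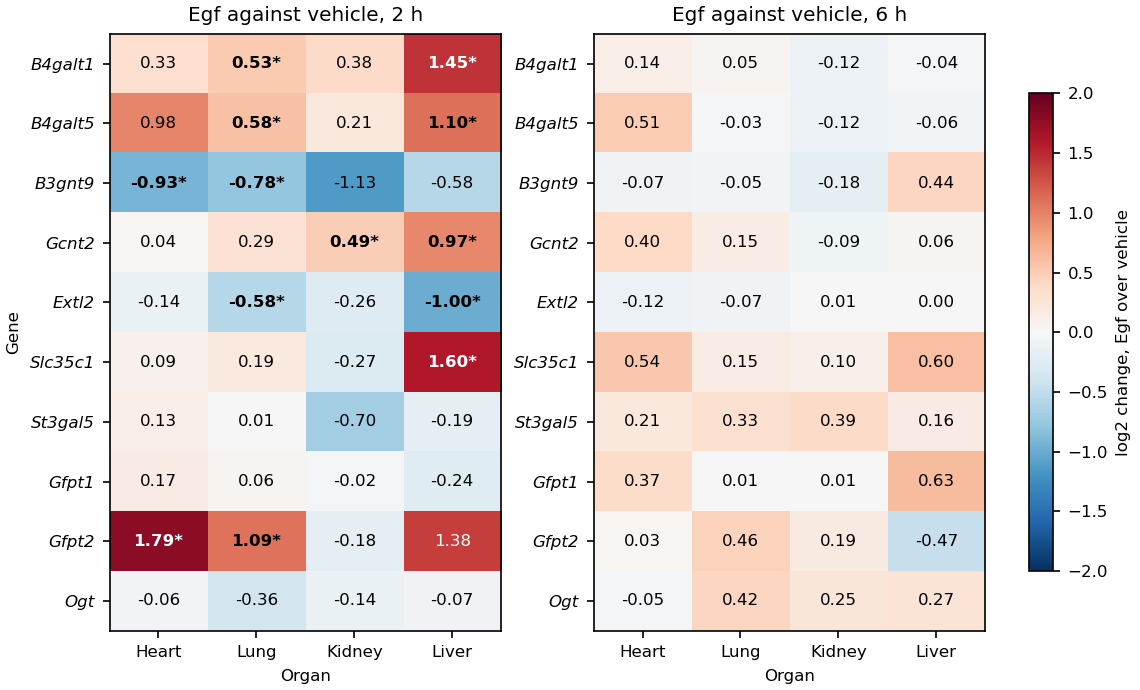
Log2 change of Egf over vehicle for the 10 genes (rows) in 4 organs (columns), at 2 h on the left and 6 h on the right; numbers are log2 changes, and bold with an asterisk marks a call in edgeR's fit. All 13 asterisks are in the 2 h panel, where values run from -1.13 to 1.79, against -0.47 to 0.63 at 6 h.

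B4galt1 (mm39 chr4:40804602-40854005, minus strand) was raised in liver from 43.6, 47.1 and 35.7 CPM in the vehicle libraries to 107, 108, 118 and 128 CPM after Egf. The groups were far apart, with a log2 change of 1.45 ± 0.14 or 2.73-fold. In lung the vehicle libraries had 142, 158 and 151 CPM and the Egf libraries 219, 211, 200 and 236, again without overlap, for a log2 change of 0.53 ± 0.10. All Egf libraries also lay above all vehicle libraries in heart (109 to 131 against 85.4 to 101 CPM, log2 change 0.33 ± 0.11) and kidney (56.7 to 66.5 against 46.3 to 49.4 CPM, 0.38 ± 0.11). EdgeR called neither, and voom called the kidney change. The lung call was lost when any vehicle library, or Egf replicate 1 or 4, was left out, and also with the replicate block, the marker covariates or a fit of the compared groups alone. The liver call was kept in every alternative run.

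B4galt5 (mm39 chr2:167140364-167191103, minus strand) had 16.2, 39.8 and 26.3 CPM in the liver vehicle libraries and 47.5, 57.4, 57.3 and 72.9 CPM after Egf. The lowest Egf library was above the highest vehicle library, and the log2 change was 1.10 ± 0.22. The vehicle library at 39.8 CPM, replicate 2, is the one in which 18S ribosomal RNA took 0.0126% of the reads, against 1.51% to 3.47% in the other liver libraries. Without it the change was 1.49, and without vehicle replicate 1 it was 0.84, both called. Lung vehicle libraries had 60.4, 57.2 and 53.1 CPM and lung Egf libraries 81.4, 86.2, 88.9 and 84.2, a log2 change of 0.58 ± 0.10 whose call was lost without vehicle replicate 3, with the marker covariates or with the compared groups alone.

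In heart B4galt5 had 30.5, 14.4 and 16.8 CPM in vehicle and 35.7, 37.0, 46.1 and 43.9 CPM after Egf. The groups did not overlap, yet the log2 change of 0.98 ± 0.22 was not called by edgeR, while DESeq2 called it. The vehicle library at 30.5 CPM carried kidney RNA, with 2879 CPM of summed proximal tubule markers against 16.8 and 432 in the other vehicle libraries, and B4galt5 was highest in kidney among the untreated organs. Without the heart libraries that met the limit for carrying another organ the change was 1.38 ± 0.17 and was called. Egf 2 h replicate 3, with 11320 CPM of hepatocyte markers, was below the limit and stayed in that fit. Without that vehicle library alone the change was also 1.38. That library had the highest B4galt5 of its group, so leaving it out raises the change whatever made it high. The part of kidney RNA in its B4galt5 level was not tested. Kidney itself showed 156 to 166 CPM after Egf and 125 to 151 in vehicle, a log2 change of 0.21 ± 0.10 that was not called.

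Slc35c1 (mm39 chr2:92283109-92290883, minus strand) had the largest called change of the 10 genes in liver. Its vehicle libraries had 15.6, 19 and 13.6 CPM, and the Egf libraries 33.7, 52.0, 60.2 and 49.9. The groups were well separated, at a log2 change of 1.60 ± 0.19 or 3.04-fold, and the call held in every alternative. In the other organs the change at 2 h was 0.09 ± 0.17 in heart, 0.19 ± 0.12 in lung and -0.27 ± 0.13 in kidney, none of them called. At 6 h the liver Egf libraries still had 19.7, 25.7, 19.8 and 29.4 CPM against 16.8, 15.2 and 14.8 in vehicle, without overlap, but the log2 change of 0.60 ± 0.19 was not called.

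Gcnt2 (mm39 chr13:41013230-41114368, plus strand) was called higher in liver and kidney. Liver vehicle libraries had 15.1, 23.6 and 21.4 CPM and liver Egf libraries 35.3, 37.2, 36.6 and 47.7, a log2 change of 0.97 ± 0.17 that was called in every alternative. Kidney vehicle libraries had 53.7, 49.7 and 49.1 CPM and kidney Egf libraries 62.7, 72.8, 71.3 and 79.1, a log2 change of 0.49 ± 0.10. The kidney call was the less secure: of the 7 fits that each left out 1 library it was kept only without Egf replicate 1, being lost without Egf replicates 2, 3 or 4 or any vehicle library. Lung Egf libraries (104 to 128 CPM) also lay above lung vehicle libraries (91.0 to 96.9 CPM), at 0.29 ± 0.09, called by voom but not by edgeR. In heart the groups overlapped at 0.04 ± 0.19.

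Extl2 (mm39 chr3:115801111-115822666, plus strand) was the member lowered in both liver and lung. Liver vehicle libraries had 7.89, 7.61 and 8.94 CPM and liver Egf libraries 5.24, 3.70, 3.91 and 3.46, so that Egf libraries stood at 50.1% of vehicle (log2 change -1.0 ± 0.20). Lung vehicle libraries had 14.8, 13.2 and 14.3 CPM and lung Egf libraries 10.0, 9.33, 9.0 and 9.42, a log2 change of -0.58 ± 0.11. Neither organ's groups overlapped. The liver call held in every alternative, and the lung call was lost without vehicle replicate 1 or 3 and in 3 of 8 other settings. Kidney Egf libraries were all below vehicle too (15.7 to 17.8 against 18.2 to 22.1 CPM, -0.26 ± 0.10), without a call, and heart overlapped at -0.14 ± 0.11.

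**Figure D3:**
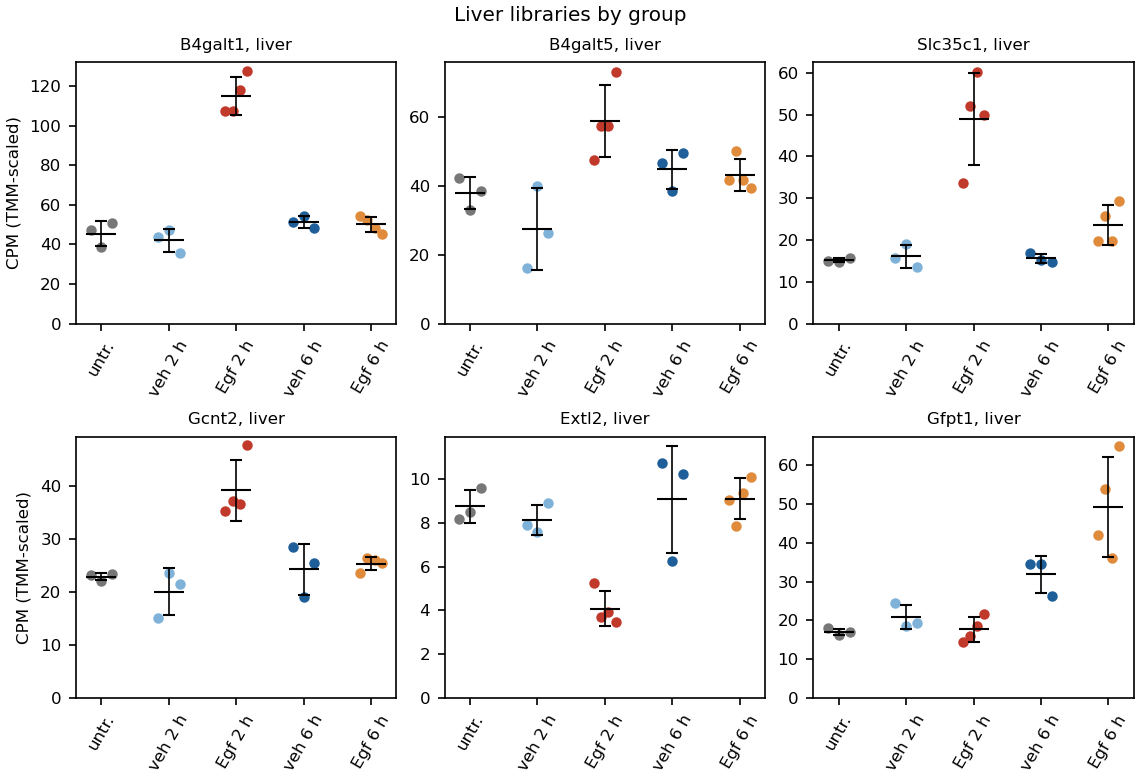
CPM of 6 genes in the 17 liver libraries by group (untr., untreated; veh, vehicle), with a point for each library, a bar at the mean and whiskers of 1 SD. At 2 h the Egf points of B4galt1, B4galt5, Slc35c1 and Gcnt2 sit above, and those of Extl2 below, all vehicle points, while at 6 h only Slc35c1 and Gfpt1 show Egf libraries all above vehicle.

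B3gnt9 (mm39 chr8:105979270-105981785, minus strand) had 5.80, 8.44 and 7.51 CPM in heart vehicle libraries and 2.95, 4.12, 4.35 and 3.80 after Egf. In lung it had 19.5, 15.4 and 27.6 CPM in vehicle and 11.9, 13.3, 9.91 and 13.6 after Egf. Neither organ's groups overlapped, and the log2 changes of -0.93 ± 0.17 and -0.78 ± 0.17 were called. Kidney had -1.13 ± 0.28 with overlap (0.749 to 1.81 against 1.80 to 3.63 CPM), and liver -0.58 ± 0.49 at under 2 CPM, neither called by edgeR. DESeq2 and voom both called the kidney change. The edgeR calls in heart and lung were fragile. Of the fits leaving out 1 library each, the heart call was kept only without vehicle replicate 1 and the lung call only without vehicle replicate 2, and without lung vehicle replicate 3, the library at 27.6 CPM, the change was -0.54.

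The B3gnt9 values are also uncertain for another reason. The gene overlaps Phaf1, a protein-coding gene on the opposite strand with 653% of its reads over the 68 libraries, and the library preparation did not keep strand, so reads of the shared stretch cannot be told apart. Phaf1 itself had a log2 change at 2 h of -0.04 ± 0.16 in heart, -0.06 ± 0.11 in lung and -0.10 ± 0.11 in kidney, none of them called. In liver Phaf1 had 84.1 CPM after Egf and 57.7 in vehicle, at 0.54 ± 0.23, also not called.

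Of the hexosamine genes, Gfpt2 (mm39 chr11:49685005-49729440, plus strand), the amidotransferase isoform typical of fibroblasts and other mesenchymal cells, had the largest called change. In heart it went from 11.5, 10.8 and 11.6 CPM to 38.6, 39.4, 42.4 and 35.5, a log2 change of 1.79 ± 0.20 or 3.45-fold, called in every alternative. In lung it had 15.9, 17.3 and 17.1 CPM in vehicle and 39.2, 32.5, 34.9 and 35.9 after Egf, a log2 change of 1.09 ± 0.18, whose call was lost only without vehicle replicate 1. Both organs showed wide gaps between the groups.

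In liver Gfpt2 stayed under 2 CPM in every library. Its Egf libraries had 1.01 to 1.79 CPM and its vehicle libraries 0.419 to 0.574, without overlap, and the log2 change of 1.38 ± 0.41 was called by voom but not by edgeR. In kidney the groups overlapped, with 3.82 to 5.63 CPM after Egf and 4.48 to 5.79 in vehicle (-0.18 ± 0.18).

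Markers of other cells moved beside the heart and lung changes. Summed fibroblast markers (Col1a1, Col1a2, Col3a1, Dcn, Lum and Pdgfra, all with reads) were 987 to 1209 CPM in heart Egf libraries and 776 to 997 in vehicle at 2 h. In lung they were 1373 to 1663 against 1492 to 1953, and the groups overlapped in both organs. The 7 neutrophil markers summed to 2.36 to 7.95 CPM against 0.427 to 1.42 in heart, where Ly6g and Mmp8 had no reads in vehicle, to 110 to 251 against 70.3 to 116 in lung, to 1.19 to 2.38 against 0.340 to 0.669 in kidney and to 2.21 to 8.12 against 0.712 to 2.02 in liver. Ly6g had no reads in liver or kidney at 2 h, Camp none in kidney and Mmp8 none in kidney vehicle. Summed hepatocyte markers were 1293 to 4708 CPM in lung Egf libraries and 693 to 1355 in lung vehicle, and 1 heart Egf library, replicate 3, had 11320 where the other heart libraries at 2 h had 104 to 1304. The 6 monocyte markers were also higher throughout after Egf in heart (56.6 to 70.8 against 49.6 to 52.7 CPM) and liver (24.2 to 28.5 against 14.6 to 19.6), with overlap in lung and kidney. The 5 adipocyte markers were higher throughout in lung (155 to 253 against 122 to 149 CPM) and liver (20.5 to 28.4 against 1.42 to 3.12), where Cfd and Retn had no reads in vehicle. In liver, Egf replicate 1 held 178 CPM of adrenal markers against 0.658 to 2.15 in the other Egf libraries. Without that library all 5 liver calls were kept. In kidney, where Gcnt2 was called higher, the summed level of the 5 adrenal markers was 22.5, 2.04, 62.2 and 23.6 CPM after Egf and 1.37 to 2.15 CPM in vehicle. In heart they summed to 3.05 to 4.16 CPM after Egf and 1.59 to 2.91 in vehicle. The part of these cells in the results was not tested.

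Gfpt1 (mm39 chr6:87019828-87069179, plus strand), the widely expressed isoform, was called in no organ after Egf by edgeR, while voom called it in heart at 6 h. Its log2 change at 2 h was -0.24 ± 0.19 in liver, 0.17 ± 0.14 in heart, 0.06 ± 0.09 in lung and -0.02 ± 0.10 in kidney. At 6 h in liver its Egf libraries had 42.2, 53.9, 36.1 and 65.0 CPM and its vehicle libraries 34.6, 34.7 and 26.3. They did not overlap, and the log2 change of 0.63 ± 0.19 was not called.

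Ogt (mm39 chrX:100683666-100727957, plus strand) took opposite signs at the 2 times in lung. At 2 h lung Egf libraries had 34.4, 33.1, 35.4 and 32.8 CPM against 41.7, 47.9 and 41.2 in vehicle, all lower (log2 change -0.36 ± 0.09, not called by edgeR but called by DESeq2 and voom). At 6 h they had 52.1, 62.4, 52.4 and 48.4 CPM against 40.7, 39.8 and 39.99, all higher (0.42 ± 0.09, called by DESeq2 but not by edgeR or voom). The difference between the 2 effects, 6 h minus 2 h, was 0.78 ± 0.13 and was called. The call was narrow, since it was lost in 6 of 8 other settings and with each single library left out except Egf 6 h replicate 4. Same-numbered lung libraries at 6 h deviated together, and with the replicate number as a block the difference was 0.77 and not called. In heart, kidney and liver the same difference was 0.02 ± 0.15, 0.39 ± 0.16 and 0.35 ± 0.36.

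**Figure D4:**
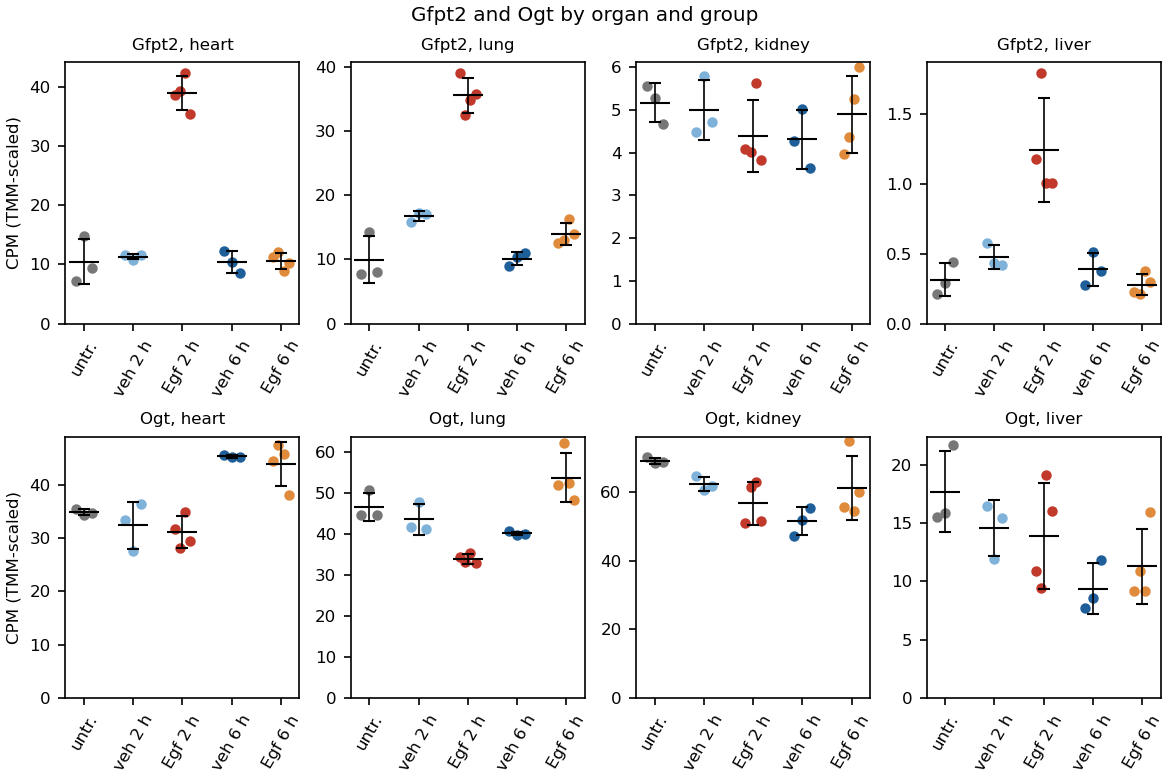
CPM of Gfpt2 (upper row) and Ogt (lower row) in each library by group and organ (untr., untreated; veh, vehicle), each panel with its own axis from 0, with a bar at the mean and whiskers of 1 SD. Gfpt2 after Egf at 2 h stands at 35.5 to 42.4 in heart and 32.5 to 39.2 in lung, above every other group, and Ogt in lung lies below vehicle at 2 h and above it at 6 h.

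At 6 h after Egf none of the 40 gene and organ pairs was called by edgeR, where 0.0128% of all genes tested were called in heart, 0.0883% in liver and 0% in both lung and kidney. At an unadjusted p under 0.05 there were 3 genes of the 10 in heart, 2 in liver, 2 in lung and 1 in kidney, and over all genes tested 1647, 1160, 907 and 986. DESeq2 called 1, Ogt in lung, where it called 10 of all genes tested. Limma voom with quality weights called B4galt5, Slc35c1 and Gfpt1 in heart and Ogt in kidney. That voom fit called 1626 genes of all tested in heart and 810 in kidney. In heart, Slc35c1 had 8.50, 12.7, 12.1 and 12.2 CPM after Egf and 8.15, 7.34 and 7.99 in vehicle, all higher, at a log2 change of 0.54 ± 0.17.

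The change of effect from 2 h to 6 h was called for B4galt1 in liver (-1.49 ± 0.19) and for Ogt in lung, where 1.03% and 0.0417% of all genes tested were called. For B4galt1 in liver the 6 h libraries were 45.5 to 54.2 CPM with Egf and 48.4 to 54.5 with vehicle, so the groups overlapped. Heart and kidney had no member called, with 0.0128% and 0.0192% of all genes called. At an unadjusted p under 0.05 there were 2 members in heart and 6 in kidney, and over all genes tested 662 and 1021. DESeq2 called Gfpt2 in heart and Gcnt2 in kidney, and voom none in heart and B4galt1, Gcnt2 and St3gal5 in kidney. Over all genes tested DESeq2 called 22 in heart and 52 in kidney, and voom 3 and 254. Gfpt2 in heart had -1.75 ± 0.27, since its 6 h Egf libraries (8.93 to 12 CPM) lay within the range of vehicle (8.52 to 12.3 CPM).

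Across organs, the 2 h Egf effect differed for B4galt1, Gcnt2, Extl2, Slc35c1 and Gfpt2 in the fit over 68 libraries, in which 2.19% of all genes tested were called. It was not called for B4galt5, B3gnt9, St3gal5, Gfpt1 or Ogt. The widest spreads between the organs with the highest and lowest log2 effect were 1.97 for Gfpt2 and 1.88 for Slc35c1. Because the list was chosen on these effects, the calls are a description of how the genes differ between organs.

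St3gal5 (mm39 chr6:72074576-72131555, plus strand) showed its difference between vehicle and untreated liver. The untreated liver libraries had 100.3, 101 and 109.6 CPM, the vehicle libraries 258, 242 and 315 at 2 h and 299.6, 291 and 203 at 6 h, and the Egf libraries 197, 257, 240 and 259 at 2 h. All injected libraries were above all untreated ones, and Egf and vehicle overlapped. The log2 change of vehicle over untreated was 1.39 ± 0.19 at 2 h and 1.35 ± 0.19 at 6 h, both called, and Egf over vehicle was -0.19 ± 0.17 and 0.16 ± 0.17. The 2 h call was lost without untreated replicate 1 and with covariates for markers of other organs. Gfpt1 in liver was also called higher in vehicle at 6 h (34.6, 34.7 and 26.3 CPM) than in untreated (17.9, 16.2 and 16.9), at 0.90 ± 0.21, and of the fits leaving out 1 library this call was kept only without vehicle replicate 3. Ogt in liver at 6 h had 9.37 ± 2.20 CPM in vehicle and 17.7 ± 3.47 in untreated (SD, n = 3 each), all lower at -0.92 ± 0.27, which edgeR and DESeq2 did not call but voom and the replicate block did. These contrasts share the vehicle libraries with the Egf contrasts.

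In liver 0.155% of all genes tested were called between vehicle and untreated at 2 h and 0.67% at 6 h. No member was called in these contrasts by edgeR in heart (0.0128% of all genes at 2 h and 0.0192% at 6 h), lung (0.0656% and 0.101%) or kidney (0.0256% and 0.211%). At an unadjusted p under 0.05 the members numbered 0 and 2 in heart, 2 and 1 in lung, and 1 and 2 in kidney. All genes under that limit numbered 2532 and 1456 in heart, 2047 and 1645 in lung, and 2130 and 1113 in kidney. DESeq2 called Gfpt2 in lung at 2 h, where it called 204 of 16778 genes. Voom called Extl2 and Gfpt2 in lung and B3gnt9 and Extl2 in kidney at 2 h. At 6 h voom called Extl2 and Ogt in heart and B4galt5, St3gal5 and Ogt in kidney. Over all genes voom called 860 of 16778 in lung and 2858 of 15654 in kidney at 2 h. At 6 h it called 951 of 15618 in heart and 1391 of 15654 in kidney.

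In heart and lung some libraries high in St3gal5 also held much hepatocyte RNA. The 2 heart libraries with the most summed hepatocyte markers, untreated replicate 1 (19250 CPM) and Egf 6 h replicate 3 (16280 CPM), had 102 and 104 CPM of St3gal5, against 53.5 in untreated replicate 2 with 1435 CPM of these markers. Other heart libraries did not follow this order: untreated replicate 3 had 78.7 CPM of St3gal5 with 16080 CPM of markers, Egf 2 h replicate 3 had 74.1 with 11320, the lowest St3gal5 of its group, and Egf 2 h replicate 1 had 92.8, the highest of its group, with 1304. In lung the Egf 6 h replicate 3 library had 76.6 CPM of St3gal5 with 32880 CPM of hepatocyte markers, and every other lung library had 32.1 to 42.3 CPM. Without the libraries carrying another organ the 6 h Egf change was -0.06 ± 0.17 in heart and -0.01 ± 0.12 in lung, in place of 0.21 ± 0.22 and 0.33 ± 0.22. The heart's own level did not vanish at low marker sums: vehicle libraries at 2 h, with 104 to 170 CPM of hepatocyte markers, had 65.2, 80.4 and 72.5 CPM of St3gal5. Kidney had under 8 CPM, with 3.40 to 4.36 after Egf at 2 h and 5.29 to 7.07 in vehicle, all lower at -0.70 ± 0.20 and not called.

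**Figure D5:**
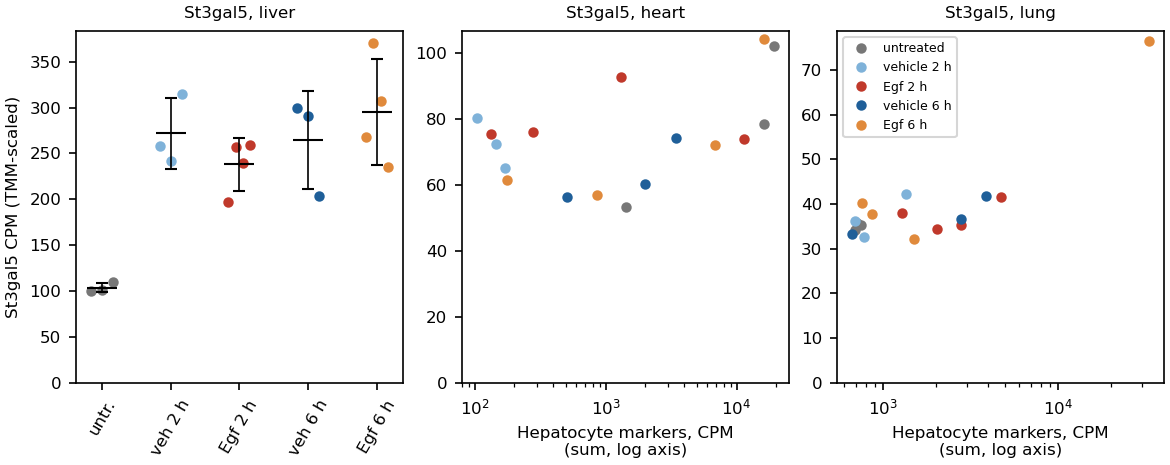
St3gal5 CPM in liver by group (left; untr., untreated; veh, vehicle; bar, mean; whiskers, 1 SD) and, in heart and lung, against the summed CPM of 10 hepatocyte markers on a log axis, 1 point a library, coloured by group. Untreated liver sits at 100.3 to 109.6 and every injected liver library at 197 or more, and in lung the library at 32880 CPM of hepatocyte markers stands alone at 76.6.

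Beyond the 10 genes, 119 other genes of 8 glycosylation lists were looked at, of which 94 to 109 were tested in each organ. The lists were written with earlier results of these data known, and Ndst2 and Fpgt were named after their values were seen. The adjusted p-values of listed genes are therefore a description and not independent evidence. In liver at 2 h 5 of 94 were called, 2 higher and 3 lower, where 3.92% of all genes tested were called, a share close to that of the lists. DESeq2 called 9 of these genes and voom 11, where they called 755 and 1036 of all genes tested. The median log2 change of the listed genes was -0.05 against -0.02 for all genes. Gnpda1, glucosamine-6-phosphate deaminase, which turns glucosamine-6-phosphate back into fructose-6-phosphate, fell from 17.1, 22.9 and 22.8 CPM to 7.06, 6.11, 8.88 and 5.28 CPM, a log2 change of -1.61 ± 0.18 (adjusted p = 1.71e-05, edgeR, lower in 4 of 4 libraries). Ugcg, glucosylceramide synthase, which supplies the substrate of B4galt5, rose from 17.3, 18.5 and 14.3 CPM to 32.5, 44.7, 35.8 and 52.4 CPM (1.31 ± 0.18, adjusted p = 1.59e-04). Glce, the epimerase that turns glucuronic into iduronic acid in heparan sulphate, fell by 0.76 ± 0.14 (adjusted p = 0.00355), and Ndst2, a deacetylase and sulphotransferase of the same chain, fell by 0.71 ± 0.16 (adjusted p = 0.0108). Fpgt, which makes GDP-fucose from salvaged fucose, rose by 0.66 ± 0.15 (adjusted p = 0.0119). In each of these 5 genes all Egf libraries lay on 1 side of all vehicle libraries. The calls of Gnpda1, Ugcg and Glce were kept in all 12 alternatives, and those of Ndst2 and Fpgt were lost without vehicle replicate 1 or vehicle replicate 3 (highest adjusted p 0.0740 and 0.0627).

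By list, the liver calls at 2 h were 1 of 14 hexosamine and O-GlcNAc genes, 1 of 8 glycosphingolipid genes, 2 of 16 heparan sulphate genes and 1 of 11 fucosylation genes. No gene was called among 16 galactosyl- and GlcNAc-transferases, 7 sialyltransferases of glycoproteins, 12 nucleotide sugar transporters and 11 enzymes of mucin-type chains. The median log2 changes of these lists in liver ran from -0.29 for the galactosyl- and GlcNAc-transferases to 0.07 for the hexosamine genes. Gnpda1, Glce and Ugcg were also called by edgeR for the difference between times in liver, at 1.53 ± 0.25, 1.12 ± 0.20 and -1.27 ± 0.24 (adjusted p = 0.00327, 0.00698 and 0.00930). The difference subtracts the 2 h effect, so a sign opposite to that effect is not a separate observation. These adjusted p-values are likewise a description, since the lists were written with earlier results known. In heart, lung and kidney at 2 h edgeR called none of 107, 108 and 109 listed genes, with 20, 15 and 10 at an unadjusted p under 0.05. All genes under that limit were 1193 of 15618, 1423 of 16778 and 1224 of 15654. There DESeq2 called 1, 3 and 0 listed genes and voom 0, 5 and 8. Over all genes tested DESeq2 called 102, 314 and 168 and voom 12, 843 and 596. At 6 h edgeR called none in any organ, with 13, 5, 9 and 8 in heart, lung, kidney and liver at an unadjusted p under 0.05. All genes under that limit were 1647, 907, 986 and 1160. DESeq2 called none of the listed genes at 6 h and voom 12, 0, 7 and 1. Over all genes tested voom called 1626, 0, 810 and 101.

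The genes whose pattern was most like that of 4 members were found over 20 group means, each centred on its organ, among 16909 genes. The group means share libraries and depth, so the coefficients are a description. B4galt1 was most like Gtpbp4 (Pearson r = 0.953), Kctd3 (0.948) and Bach1 (0.940), and Gfpt2 most like Has1 (0.906), Thbs1 (0.905) and Sh3pxd2b (0.891). B3gnt9 was most like Gpr153 (0.871) and Apc2 (0.870), and Ogt most like Mettl14 (0.846), Xrcc6 (0.826) and Sirt4 (0.793). The likeness was weaker for Ogt and B3gnt9 than for B4galt1 and Gfpt2.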

How the data were processed

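RNA of 68 whole-organ samples was sequenced as non-directional poly(A) libraries. Per the submitters' processing notes, HISAT2 2.0.5 and featureCounts 1.5.0-p3 were used with mm39, and the authors deposited raw gene counts in a single table, of which no column of samples was left unused (0). No library was identical to another.

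Counts were filtered (filterByExpr), scaled by TMM and fitted with edgeR 4.0.16 (R 4.3.3) with a mean per group, over the 17 libraries of an organ or over all 68 for tests between organs. Genes were called at an adjusted p under 0.05, over all genes tested. Fits were tested on simulated data. Alternatives were RLE size factors, no filter, DESeq2 1.42.0, limma 3.58.1 voom with quality weights, a replicate block, marker covariates, libraries left out, and only the groups compared. Samples were grouped by their labels. The 10 members and all lists (8 glycosylation lists and 13 marker lists) were chosen with earlier results of these data known. Named genes were all members, list genes called (at most 3 a contrast by p, and in liver at 2 h all 5, the last 2 named after their values were seen), and for 4 members the 3 genes most like each, by log2 CPM with a prior count of 2.

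Replicate numbers were checked for pairing between Egf and vehicle. Only in lung at 6 h did all 3 same-numbered pairs deviate together (correlations of 0.351, 0.361 and 0.346), so the block is given beside the lung result it touches. Differently numbered pairs were not compared, so the check establishes neither pairing nor its absence.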

Additional observations from a re-analysis of the deposited data

Results flagged for a closer look

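Single libraries stood apart from the other 3 of their Egf group in 9 of the 80 gene and group combinations of 4 libraries (about 1 in 20 would by chance). In heart these were B4galt1 at 6 h in replicate 1 (119 CPM), B4galt5 at 6 h in replicate 4 (19.5 CPM), Slc35c1 at 6 h in replicate 1 (8.50 CPM) and St3gal5 at 2 h in replicate 1 (92.8 CPM). In lung it was Extl2 at 6 h in replicate 1 (17.7 CPM). In kidney at 2 h these were B4galt5 in replicate 3 (166 CPM), Extl2 in replicate 4 (15.7 CPM) and Gfpt2 in replicate 3 (5.63 CPM). In liver it was Gcnt2 at 2 h in replicate 4 (47.7 CPM), and the liver Gcnt2 call was kept without that library.

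The Egf effect differed between 6 h and 2 h for Ogt in lung (0.78 on the log2 scale) and B4galt1 in liver (-1.49). At 2 h it differed among the organs, with a gap between the highest and lowest organ of 1.12 for B4galt1, 0.93 for Gcnt2, 0.86 for Extl2, 1.88 for Slc35c1 and 1.97 for Gfpt2. These genes were chosen with the effects known, so the differences are described and not offered as independent evidence.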

How the results depend on the processing

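Called members gave 271 alternative values, all in the direction reported, of which 194 were called. The 5 liver members at 2 h became 6 with voom, which added Gfpt2, and numbered 5 under every other alternative run. The 10 members that differed among untreated organs and the 5 whose effect differed among organs numbered the same under every alternative run. In heart at 2 h 1 member was called in place of 2 without the filter, with voom, with the replicate block, with marker covariates and with the compared groups alone, and 3 with DESeq2, which added B4galt5 (1 to 3 without single libraries). In lung at 2 h 5 became 2 with the replicate block 1 with covariates or the compared groups alone, and 6 with DESeq2 and with voom (1 to 4 without single libraries). In kidney at 2 h 1 became 0 without the filter, with the replicate block, with covariates and with the compared groups alone, 2 with DESeq2 and 3 with voom (0 to 1 without single libraries). At 6 h 0 became 3 in heart with voom, 1 in lung with DESeq2 and 1 in kidney with voom. For the difference between times, heart went from 0 to 1 without the filter, with DESeq2 and with the compared groups alone. Lung went from 1 to 0 with RLE, without the filter, with the replicate block, with covariates, without libraries carrying another organ and with the compared groups alone, and to 2 with DESeq2 and voom (0 to 1 without single libraries). Kidney went from 0 to 1 with DESeq2 and 3 with voom, and liver from 1 to 5 with DESeq2, 4 with voom and 3 with the replicate block (1 to 3 without single libraries). Between vehicle and untreated, voom called 2 in heart at 6 h, 2 in lung at 2 h, 2 in kidney at 2 h and 3 in kidney at 6 h, each in place of 0, and DESeq2 called 1 in lung at 2 h (0 to 1 without single libraries). Liver at 2 h went from 1 to 0 with covariates (0 to 1 without single libraries), and at 6 h from 2 to 1 with covariates and with the compared groups alone, and to 3 with voom and with the replicate block (1 to 2 without single libraries). The cause of these shifts was not tested, apart from the smaller number of libraries in fits that left some out. Except in lung at 6 h, correlations of same-numbered libraries had both signs within each organ and time. Pairing by number was not established, so whether a call lost under the block is a weaker effect cannot be told. No library of kidney or liver met the limit for carrying another organ, and heart vehicle against untreated could not be fitted without such libraries. For pathway genes the alternatives were chosen after seeing the data. Depth limits B3gnt9 and Gfpt2 in liver, both under 2 CPM.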
